A study of Rattus norvegicus with 18 samples.

Results

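The nuclear genes of the mitochondrial respiratory chain were described in nucleus accumbens tissue from 18 rats, all of them male and of the Sprague-Dawley strain. Members were the genes whose platform symbol begins with Nduf, with Sdha, Sdhb, Sdhc or Sdhd, with Uqcr, with Cox4 to Cox8, or with Atp5. Pseudogenes and features with several symbols were left out. This gave 102 genes of 22093 tested: 41 complex I subunits, 7 complex I assembly factors, 4 complex II subunits, 4 complex II assembly factors, 10 genes of complex III, 16 of complex IV and 20 of complex V. The rule reads symbols alone. Each rat gave 1 whole-transcript array made from 100 ng of RNA, and the 3 groups of 6 rats were named control, shock resistant and shock sensitive. The experiment is described as methamphetamine self-administration with footshock as the adverse outcome. In work of this kind a rat is called resistant when it keeps pressing for the drug although shock follows, and sensitive when it cuts down. The labels used here do not say what the controls received, how old the rats were or when tissue was taken. Rats entered the arrays on the quality of their RNA.

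Mitochondria make most of a neuron's ATP by passing electrons along protein complexes of the inner membrane. Complex I takes electrons from NADH and complex II from succinate, complex III hands them to cytochrome c, and complex IV gives them to oxygen. The proton gradient built on the way drives complex V, the ATP synthase. Most subunits are encoded in the nucleus and a small set in the mitochondrial genome. Many of their nuclear genes are known to hold binding sites for NRF1 or GABP, transcription factors known for driving mitochondrial biogenesis. The striatum has a high energy demand, and inhibitors of complexes I and II are textbook striatal and dopaminergic toxins.

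Because the members varied together from array to array, as described further on, the 250 bases before the transcription start were read for the members found in the RefSeq promoter table (assembly GRCr8). Of the 102 members 88 had an entry. The core of the NRF1 motif, CGCATGC, stood on either strand in 12 of the 88 (13.6%), against 2.93% of all 33469 promoters and 3.83% of the promoters of genes tested. The GABP motif CCGGAAG stood in 23 (26.1%), against 7.27% and 9.41%. The YY1 motif AAGATGG stood in 2 (2.27%), against 4.62% and 4.48%. A match of letters is a description and not a bound site. Whether the motifs have a part in the shared variation was not tested. Members held NRF1 and GABP motifs together in 4 promoters (4.55%, against 0.43% of all promoters and 0.592% of those of genes tested), and those 4 are shown first. They belong to Atp5pf, a subunit of the peripheral stalk of ATP synthase (chr11:37375102-37375351 on the minus strand), Atp5mg, a small membrane subunit of the same enzyme (chr8:54130408-54130657 on the minus strand), Ndufa6, an accessory subunit of complex I (chr7:115750318-115750567 on the minus strand), and Sdhb, the iron-sulfur subunit of complex II (chr5:158547684-158547933 on the plus strand). Cox7a2, a small subunit of complex IV (chr8:89601150-89601399 on the minus strand), and Atp5mk, a small membrane subunit of ATP synthase (chr1:255922048-255922297 on the minus strand), are added as a pair with the GABP motif alone that was among the 3 members of widest spread within groups, a choice made after values and motifs were seen. Cox7a2l2, the remaining one of those 3, held none of the motifs and is not shown. Sequences run 5′ to 3′ towards the start, and capitals mark the 3 motifs on either strand. The NRF1 core overlaps its own complement by all but 1 base in Atp5pf and Atp5mg, so that it was found there on both strands.
Atp5pf: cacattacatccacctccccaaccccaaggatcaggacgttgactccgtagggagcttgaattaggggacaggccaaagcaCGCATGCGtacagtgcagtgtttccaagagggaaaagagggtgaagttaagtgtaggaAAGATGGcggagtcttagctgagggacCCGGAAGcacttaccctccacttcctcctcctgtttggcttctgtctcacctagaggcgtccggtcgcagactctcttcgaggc
Atp5mg: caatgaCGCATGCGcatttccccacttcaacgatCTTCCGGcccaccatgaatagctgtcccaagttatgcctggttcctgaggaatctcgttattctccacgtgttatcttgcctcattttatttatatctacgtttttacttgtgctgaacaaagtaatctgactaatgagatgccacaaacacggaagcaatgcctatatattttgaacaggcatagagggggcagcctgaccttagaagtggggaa
Ndufa6: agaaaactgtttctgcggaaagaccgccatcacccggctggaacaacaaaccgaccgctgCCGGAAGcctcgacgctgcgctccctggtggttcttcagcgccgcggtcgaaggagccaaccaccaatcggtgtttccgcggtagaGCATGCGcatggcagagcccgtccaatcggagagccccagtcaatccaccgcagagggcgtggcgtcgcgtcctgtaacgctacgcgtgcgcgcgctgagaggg
Sdhb: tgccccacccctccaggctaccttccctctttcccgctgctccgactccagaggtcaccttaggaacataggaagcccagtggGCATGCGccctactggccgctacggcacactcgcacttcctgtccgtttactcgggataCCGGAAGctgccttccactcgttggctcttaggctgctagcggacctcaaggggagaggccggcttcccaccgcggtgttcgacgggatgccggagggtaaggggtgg
Cox7a2: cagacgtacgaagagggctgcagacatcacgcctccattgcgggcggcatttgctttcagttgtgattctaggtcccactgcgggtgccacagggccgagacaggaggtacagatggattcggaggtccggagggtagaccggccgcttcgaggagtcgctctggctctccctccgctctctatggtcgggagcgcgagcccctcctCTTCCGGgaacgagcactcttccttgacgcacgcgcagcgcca
Atp5mk: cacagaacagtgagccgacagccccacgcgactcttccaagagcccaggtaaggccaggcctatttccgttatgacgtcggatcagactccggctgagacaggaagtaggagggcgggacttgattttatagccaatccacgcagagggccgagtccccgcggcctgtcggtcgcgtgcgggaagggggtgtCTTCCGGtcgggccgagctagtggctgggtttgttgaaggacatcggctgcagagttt
In Atp5pf the NRF1 core began 169 bases before the start, the YY1 motif 111 and the GABP motif 84. In Sdhb the NRF1 core began 167 and the GABP motif 108 bases before it, and in Ndufa6 they began at 104 and 190. In Atp5mg both lay far from the start, at 244 and 216 bases. Cox7a2 and Atp5mk held the GABP motif alone, 43 and 58 bases before the start.

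Values are log2 as deposited, and groups were compared within the same feature. Between features, levels were read against the negative control features, and differences in level between genes were not tested. The 1153 negative control features of the array had a median of 6.37. Of the members, 90 lay at or above it on all 18 arrays, 10 lay below it on all 18, and Ndufa6 and Sdhaf4 fell on either side. The 10 were mostly isoforms known from other tissues or copies of another member. Cox4i2 (mean 5.16 ± 0.08 in controls; SD, n = 6 here and for every group below) is the isoform of lung and low oxygen, and Cox6a2 (4.90 ± 0.15) and Cox8b (3.96 ± 0.12) are the heart and skeletal muscle isoforms. Cox7b2 (3.79 ± 0.07) and Cox8c (4.40 ± 0.12) are known from testis. Ndufa4l2 (6.03 ± 0.17) is a relative of Ndufa4 known to be induced by low oxygen. Ndufb11b (3.45 ± 0.19), Cox7cl1 (6.04 ± 0.15), Atp5hl1 (5.33 ± 0.17) and Atp5mgl1 (4.72 ± 0.15) carry symbols of gene copies. Differences in these 10 genes are differences between dim features.

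The general isoforms lay far above the same level in controls. Cox4i1 averaged 11.02 ± 0.22, Cox6a1 14.63 ± 0.34, Cox7a2 12.82 ± 0.40, Cox7b 11.78 ± 0.22 and Cox8a 8.84 ± 0.08. Cox7a2l, which joins complexes III and IV in supercomplexes, averaged 10.79 ± 0.14. Ndufa4, named for complex I but now counted with complex IV, averaged 12.16 ± 0.14. Cox6b1, Cox6b2 and Cox7a1 were not analysed here, nor were the 13 genes of the mitochondrial genome.

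The arrays were alike in general, with medians over all features between 5.39 and 5.53 and correlations between arrays of 0.993 to 0.998 across features. The tissue label was checked on 15 medium spiny neuron markers, all above the negative control median, whose mean was 13.03 ± 0.67 in controls, 13.48 ± 0.30 in shock-resistant and 12.79 ± 0.63 in shock-sensitive rats. It was lowest in control replicate 1 (11.74) and shock-sensitive replicate 4 (11.71). Of 7 choroid plexus and ependyma markers 6 lay below the negative control median in the mean, and the mean of the 7 was 8.90 in shock-resistant replicate 4 and 5.29 to 5.95 elsewhere. The mean of 7 cortical excitatory neuron markers, 2 of them below the negative control median, also varied. It ran from 7.05 in control replicate 1 to 8.67 in control replicate 4, and was 8.15 in shock-sensitive replicate 3 and 8.53 in shock-sensitive replicate 6. The part of such differences between arrays in the respiratory chain level was not tested. In bulk tissue fewer cells of a type and less RNA per cell cannot be told apart.

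Shock-sensitive replicate 3 stood apart from the other 17 arrays in the respiratory chain genes. The mean over the 102 members was 9.16 there and 9.43 to 9.72 on the others. It was the lowest of the 18 arrays for 62 of the 102 members, against 8.87% of all genes and 15.2% of genes at or above the negative control median. Relative to the median of the other 5 shock-sensitive arrays, 95 of 102 members were lower, by a median of −0.40, where the median over all genes was 0. Over genes at or above the negative control median it was −0.052, with 7374 of 11573 lower. The most displaced was Atp5mk at −1.54, a 2.91-fold lower level, followed by Atp5f1e at −1.22, Uqcr10 at −1.17, Uqcrb at −1.10 and Cox7b at −1.06. Core and catalytic subunits were displaced to differing degrees. In complex I Ndufv2 stood at −0.70, Ndufs3 and Ndufs8 at −0.44 each, Ndufs7 at −0.29, Ndufs1 at −0.038 and Ndufv1 at −0.029, and the first 3 of these had their lowest value of the 18 arrays there. Elsewhere Uqcrc2 stood at −0.36, Sdhb at −0.16, Atp5f1a at −0.14, Uqcrc1 at −0.13, Uqcrfs1 at −0.069, Sdha at −0.030 and Atp5f1b at −0.0059. On the same array the mean of 72 ribosomal protein genes, a list chosen after the data were seen, was 10.48 against 10.79 to 11.36 elsewhere. The median of the positive control features was 10.27 there against 10.33 to 10.85, and the median of all genes was 6.57, within the range of the others. Shock-resistant replicate 6 was next lowest in the positive control features (10.33), with a member mean of 9.48. The part of these values in the low respiratory chain level was not tested. At the other end, control replicate 1 had the highest member mean of all arrays (9.72), together with the highest ribosomal protein mean (11.36) and a low medium spiny neuron mean.

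**Figure D1:**
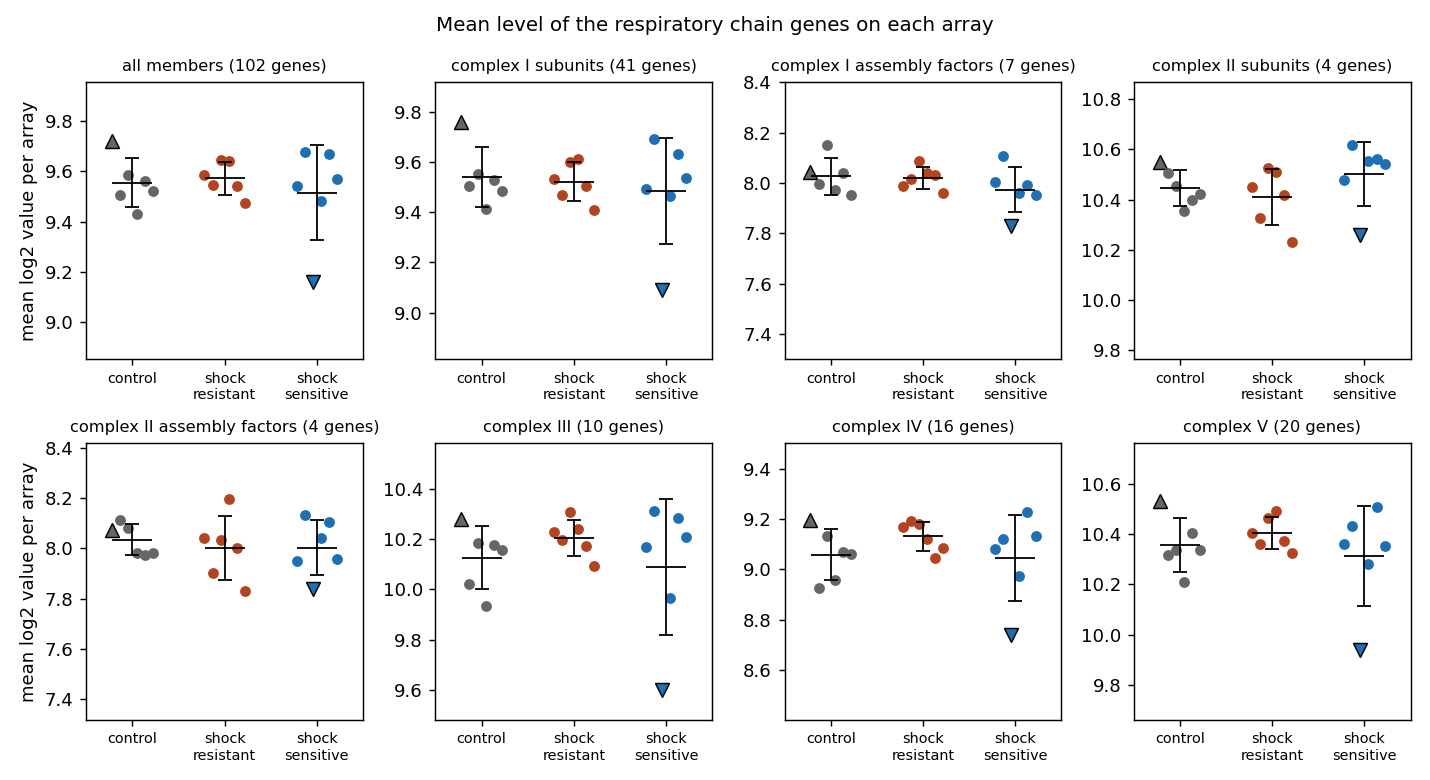
Mean log2 value of the respiratory chain genes on each array (vertical axis), for all 102 members and for each complex, by group (horizontal axis). Points are arrays, the downward triangle is shock-sensitive replicate 3, the upward triangle is control replicate 1, and bars give the group mean ± SD of 6 arrays. For all members the downward triangle lies at 9.16 and the other arrays between 9.43 and 9.72.

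The members varied together across arrays. Over the 18 arrays, after removal of group means, the mean correlation between pairs of members was 0.39, against 0.012 between pairs of all genes and 0.073 between pairs of genes at or above the negative control median. Without shock-sensitive replicate 3 the members' value was 0.25. It was highest in complex I subunits (0.56, or 0.41 without that array) and complex III (0.49, or 0.28), and lower in complex IV (0.22) and in complex I assembly factors (0.13). These pairs share arrays and some share sequence, so the values are descriptions. The spread within groups was also wider. The median SD was 0.13 over all genes, 0.14 over genes at or above the negative control median and 0.18 over members. Atp5mk had the widest (0.42), then Cox7a2l2 (0.36) and Cox7a2 (0.35), and Ndufaf4 the narrowest (0.040). Several arrays held the identical value 7.29645 for Ndufaf4, so its narrow spread rests partly on ties.

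**Figure D2:**
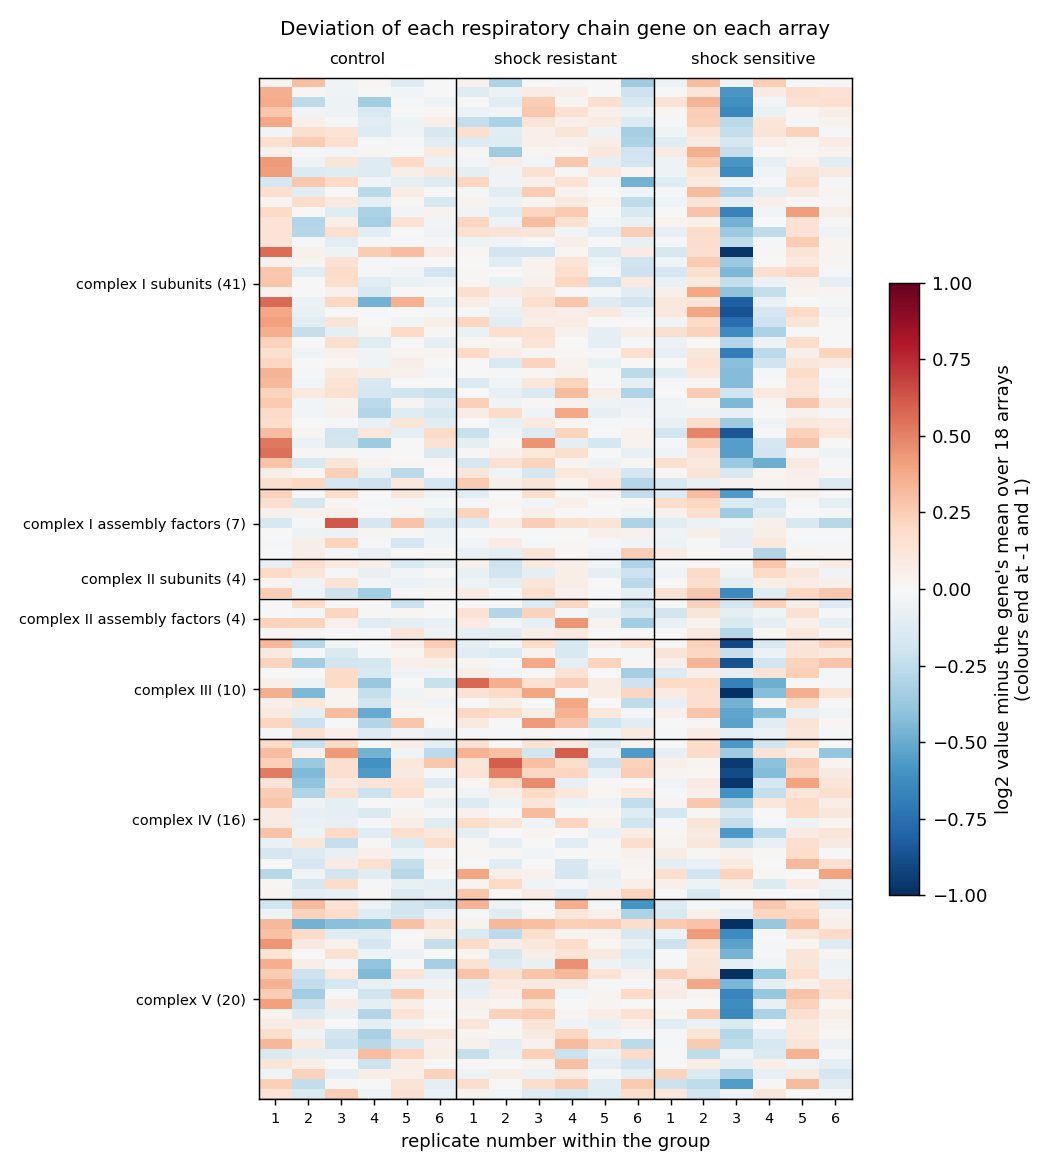
Log2 value of each of the 102 members (rows, by complex and by falling mean level within it) minus the mean of that gene over the 18 arrays (columns, by group and replicate number). Shock-sensitive replicate 3 is low in 62 members, the lowest of all arrays there, while control replicate 1 is high in much of complex I.

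Several copies tracked their parent genes closely. Cox7a2l2 correlated with Cox7a2 at 0.94 over the 18 arrays, Uqcrbl1 with Uqcrb at 0.96, Ndufa10l1 with Ndufa10 at 0.88, Ndufb4l3 with Ndufb4 at 0.85 and Uqcr11l1 with Uqcr11 at 0.84. Probes of such pairs may detect the same transcripts, so each pair is uncertain as a pair of separate measurements. Without shock-sensitive replicate 3 Ndufb4l3 and Ndufb4 correlated at 0.53, and the other 4 pairs at 0.80 to 0.91. Atp5mc1l1 and Atp5mc1 correlated at 0.75, or 0.72 without that array, and Ndufb4l1 and Ndufb4 at 0.85, or 0.59. Other copies correlated less with their parents: Atp5hl1 and Atp5pd stood at 0.53 over the 18 arrays, or 0.30 without shock-sensitive replicate 3, Atp5mc1l2 and Atp5mc1 at 0.34, Atp5mgl4 and Atp5mg at 0.16, Ndufb11b and Ndufb11 at 0.11, and Atp5mgl1 and Atp5mg at 0.0020.

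Shock-resistant rats were compared with controls first. No member passed an adjusted p of 0.05 in the limma fit over all genes, in which 4 genes passed (0.0181%), and the smallest adjusted p of a member was 0.362. At an unadjusted p under 0.05 there were 2 of 102 members against 11.4% of all genes, 1 of them higher (7.22% of all genes) and 1 lower (4.2%). The members were split evenly, 52 higher and 50 lower, where 54.4% of all genes were higher. With array medians centred the split was 38 higher and 64 lower, and without control replicate 1 it was 69 higher and 33 lower. The median difference was 0.0015 on the log2 scale, against 0.010 over all genes, and differences ran from −0.27 to 0.31.

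Shock-sensitive rats against controls gave 0 members past the adjusted threshold and 0 genes in all (0% of genes tested), with a smallest adjusted p of 0.731 among members. At an unadjusted p under 0.05 there were 3 members against 6.09% of all genes, 2 of them higher (4.56% of all genes) and 1 lower (1.53%). Here 36 members were higher and 66 lower, with a median of −0.036, against 56.9% of all genes higher and a median of 0.013. This direction rested on shock-sensitive replicate 3: without it 70 members were higher and 32 lower, with a median of 0.036. Over all genes 13109 of 22093 were then higher, with a median of 0.017. Again 3 members had an unadjusted p under 0.05, against 1040 of 22093 genes, and 0 members and 0 genes passed the adjusted threshold. With control replicate 1 left out as well, 83 members were higher and 19 lower.

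Shock-resistant against shock-sensitive rats, the comparison of the groups named for their response to shock, likewise gave 0 members and 0 genes past the adjusted threshold (0% of genes tested), with a smallest adjusted p of 0.753 among members. At an unadjusted p under 0.05 there were 4 members against 6.4% of all genes, 3 of them higher in shock-resistant rats (2.63% of all genes) and 1 lower (3.77%). Of the members 73 were higher and 29 lower in shock-resistant rats, with a median of 0.053, against 48.4% higher and −0.0026 over all genes. Without shock-sensitive replicate 3 the split turned to 42 higher and 60 lower with a median of −0.016. Over all genes 10643 of 22093 were then higher, with a median of −0.0037. An unadjusted p under 0.05 was then held by 5 members, against 1528 of 22093 genes. The 3 comparisons share groups, so they are not independent of each other.

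The precision was enough to bound most members. The 95% interval of the difference lay within a 1.5-fold change either way for 95 of 102 members in shock-resistant rats against controls, 101 in shock-sensitive rats against controls and 96 between the shock groups. Within 1.25-fold it lay for 70, 65 and 65. Outside 1.5-fold in both comparisons of shock-resistant rats were Atp5f1e, Atp5mk, Cox7a2, Cox7a2l2, Uqcr10 and Uqcr11, all small subunits or a copy of one. Ndufb4l3 lay outside in both comparisons with controls. The median interval reached 0.21 on the log2 scale to either side.

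**Figure D3:**
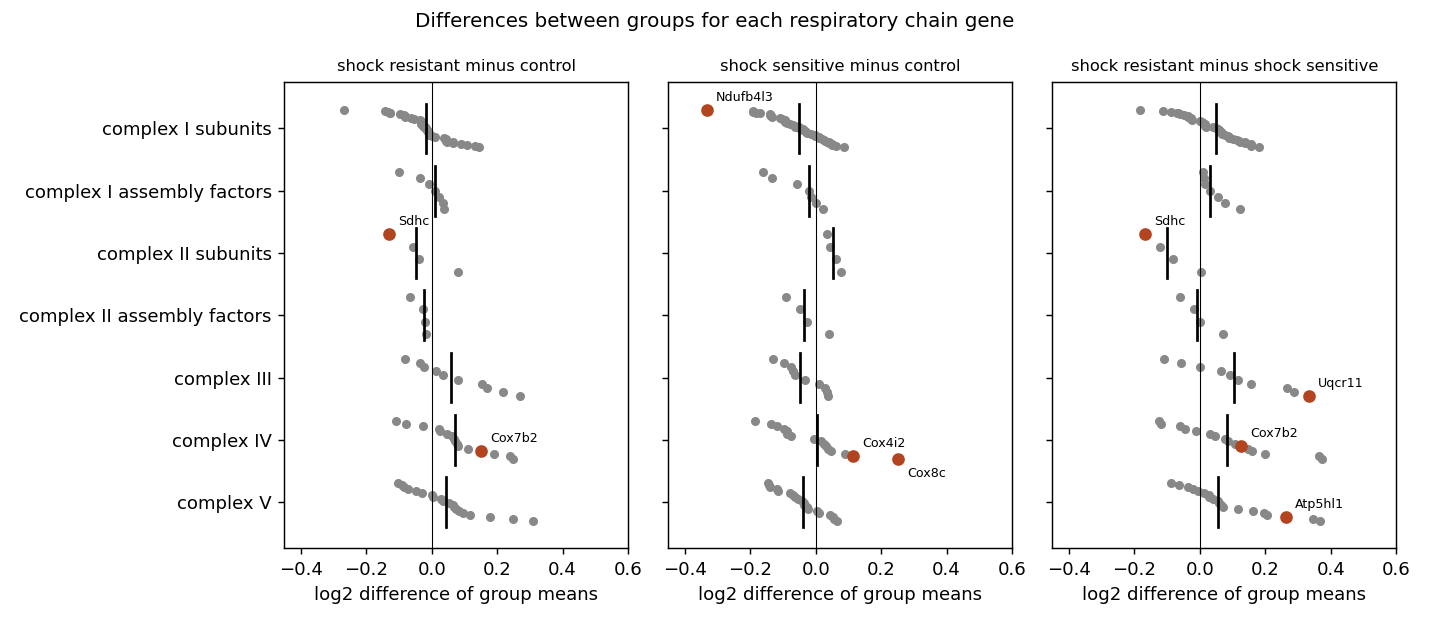
Log2 difference of group means (horizontal axis) of every member, by complex (rows), for the 3 comparisons. Points are genes, vertical bars are medians of a complex, and the larger named points have an unadjusted limma p under 0.05. Differences run from −0.33 to 0.37, and none passed the adjusted threshold.

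Complex I, the entry point of electrons from NADH, set against controls, had 13 of 41 subunits higher and 28 lower in shock-resistant rats (median −0.018), and 12 higher and 29 lower in shock-sensitive rats (median −0.049). The latter direction turned without shock-sensitive replicate 3, to 26 higher and 15 lower (median 0.034). For the former, the complex I mean was 9.76 in control replicate 1, 9.41 to 9.55 in the other controls and 9.52 on average in shock-resistant rats. Without control replicate 1, 69 of all 102 members were higher and 33 lower in shock-resistant rats, and the split of complex I alone was not read. Between the shock groups 29 were higher and 12 lower in shock-resistant rats (median 0.051), which became 11 and 30 (median −0.046) without shock-sensitive replicate 3. Ndufs1, the largest subunit and carrier of iron-sulfur clusters, read 12.75 to 13.18 in controls (median 12.88), 12.52 to 12.92 in shock-resistant rats (median 12.87) and 12.82 to 13.18 in shock-sensitive rats (median 12.88). The medians lay together and 2 shock-resistant arrays lay below all others. Its difference was −0.18 ± 0.09 (SE) between the shock groups (limma adjusted p = 0.769) and −0.13 ± 0.09 against controls (adjusted p = 0.563).

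Ndufb4l3, a copy of the membrane-arm subunit Ndufb4, read 10.11 to 10.71 in controls (median 10.32), 9.96 to 10.24 in shock-resistant rats (median 10.09) and 9.18 to 10.32 in shock-sensitive rats (median 10.18). The groups overlapped, and 0 of 6 arrays of either shock group lay above the control median. The difference from controls was −0.33 ± 0.15 in shock-sensitive rats (adjusted p = 0.807), 1.26-fold lower, and −0.27 ± 0.15 in shock-resistant rats (adjusted p = 0.511), 1.20-fold lower. The lowest value, 9.18, was that of shock-sensitive replicate 3, and without it the difference in shock-sensitive rats was −0.16 (adjusted p = 0.995).

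Other accessory subunits of complex I differed by less. Ndufa3, of the membrane arm, averaged 7.78 ± 0.17 in controls, 7.92 ± 0.18 in shock-resistant and 7.82 ± 0.04 in shock-sensitive rats, a difference of 0.14 ± 0.08 in shock-resistant rats (adjusted p = 0.495). Ndufa12, of the matrix arm, averaged 8.27 ± 0.13, 8.15 ± 0.11 and 8.14 ± 0.22 in the same order. Ndufa10l1, a copy of Ndufa10, averaged 11.72 ± 0.14, 11.57 ± 0.15 and 11.64 ± 0.11, and the control median was exceeded by 0 of 6 shock-resistant arrays. Ndufa2, an accessory subunit of the NADH-oxidising tip, averaged 7.33 ± 0.24 in controls, 7.30 ± 0.08 in shock-resistant and 7.15 ± 0.24 in shock-sensitive rats. Ndufs5, an accessory subunit on the outer face, averaged 8.82 ± 0.18, 8.78 ± 0.11 and 8.62 ± 0.34. In both genes shock-sensitive replicate 3 was the lowest and control replicate 1 the highest array, and with both left out the differences were 0.00068 and 0.0035 in place of −0.18 and −0.19.

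Among complex I assembly factors, which put the subunits together and do not stay in the enzyme, all 7 were higher in shock-resistant than in shock-sensitive rats, by 0.0090 to 0.12, and 3 of 7 were higher without shock-sensitive replicate 3. The smallest p among the 3 groups was that of Ndufaf6, which read 7.43 to 8.23 in controls (median 7.52), 7.31 to 7.86 in shock-resistant (median 7.72) and 7.34 to 7.66 in shock-sensitive rats (median 7.53). The 2 highest control arrays lay above every array of the shock groups, and the remaining arrays overlapped. Its difference between the shock groups was 0.12 ± 0.13 (adjusted p = 0.899).

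Complex II, which oxidises succinate and is the one complex with no mitochondrially encoded subunit, held the member with the smallest p in the comparison of the shock groups. Sdhc, a membrane anchor of the complex, read 11.10 to 11.37 in controls (median 11.16), 10.96 to 11.23 in shock-resistant rats (median 11.08) and 11.13 to 11.36 in shock-sensitive rats (median 11.21). Of the 6 shock-resistant arrays 5 lay below every control array, and 5 below every shock-sensitive array. The difference was −0.17 ± 0.06 between the shock groups, 1.12-fold lower in shock-resistant rats (adjusted p = 0.753), and −0.13 ± 0.06 against controls, 1.10-fold lower (adjusted p = 0.425). Without shock-sensitive replicate 3 the first of these was −0.19 (adjusted p = 0.704).

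With all arrays, no difference of the other 3 subunits of complex II reached the 0.17 of Sdhc. Sdha, the catalytic flavoprotein, averaged 12.38 ± 0.12 in controls, 12.32 ± 0.16 in shock-resistant and 12.44 ± 0.11 in shock-sensitive rats. Sdhb, the iron-sulfur subunit, averaged 9.32 ± 0.08, 9.28 ± 0.14 and 9.36 ± 0.09. Sdhd, the other membrane anchor, averaged 8.89 ± 0.20, 8.97 ± 0.09 and 8.96 ± 0.35, and its shock-sensitive group held 1 low array, replicate 3, at 8.30. Without that array Sdhd stood 0.21 ± 0.09 above controls in shock-sensitive rats (limma adjusted p = 0.995), in place of 0.077. All 4 subunits were higher in shock-sensitive rats than in controls, by 0.035 to 0.077, with 0 passing the test. Between the shock groups 3 of 4 were lower in shock-resistant rats, and 4 of 4 without shock-sensitive replicate 3 (median −0.13). Of the 4 assembly factors, Sdhaf1, which serves the iron-sulfur clusters of Sdhb, averaged 7.67 ± 0.16, 7.65 ± 0.26 and 7.58 ± 0.08.

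In shock-resistant rats complex III had 7 of 10 genes above controls (median 0.058) and 8 of 10 above shock-sensitive rats (median 0.10), or 4 of 10 without shock-sensitive replicate 3. Uqcr11, one of its smallest subunits, read 9.61 to 10.18 in controls (median 9.96), 9.78 to 10.56 in shock-resistant rats (median 10.18) and 9.31 to 10.18 in shock-sensitive rats (median 9.98). The groups overlapped, and 3 shock-resistant arrays lay above every array of both other groups. The difference was 0.33 ± 0.15 between the shock groups, 1.26-fold (adjusted p = 0.769), and 0.27 ± 0.15 against controls, 1.21-fold (adjusted p = 0.506). Without shock-sensitive replicate 3 the first of these was 0.22 (adjusted p = 0.730). Its copy Uqcr11l1 gave 0.27 ± 0.13 between the shock groups (adjusted p = 0.769). Uqcrc2, a core subunit, went the other way between the shock groups, with means of 13.34 ± 0.08 in shock-resistant and 13.45 ± 0.16 in shock-sensitive rats and a control mean of 13.42 ± 0.11. Its difference was −0.11 ± 0.07 (adjusted p = 0.809), or −0.16 without shock-sensitive replicate 3 (adjusted p = 0.704).

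In complex IV 13 of 16 genes were above controls in shock-resistant rats (median 0.071) and 8 of 16 in shock-sensitive rats (median 0.0053), and 11 of 16 were higher in the shock-resistant of the 2 shock groups (median 0.082). With shock-sensitive replicate 3 left out, shock-sensitive rats had 14 of 16 above controls (median 0.032), and shock-resistant rats had 10 of 16 above shock-sensitive rats (median 0.019). Those with the smallest p were dim isoforms below the negative control median. Cox8c read 4.28 to 4.55 in controls (median 4.40), 4.38 to 4.95 in shock-resistant rats (median 4.58) and 4.36 to 4.96 in shock-sensitive rats (median 4.64). Of the shock-sensitive arrays 5, and of the shock-resistant arrays 4, lay above every control array. Among the 5, shock-sensitive replicate 5 (4.55367) was practically level with the highest control (4.55363). The differences from controls were 0.25 ± 0.10 (adjusted p = 0.785) and 0.19 ± 0.10 (adjusted p = 0.460). Cox4i2 averaged 5.16 ± 0.08 in controls, 5.23 ± 0.02 in shock-resistant and 5.28 ± 0.07 in shock-sensitive rats, and all 6 arrays of each shock group lay above the control median. Shock-resistant replicates 1, 2 and 5 and shock-sensitive replicate 4 held the identical value 5.23934 for Cox4i2, so the SD of 0.02 rests partly on ties. Its difference in shock-sensitive rats was 0.12 ± 0.04 (adjusted p = 0.731), the smallest of the members there. Cox7b2 averaged 3.79 ± 0.07, 3.94 ± 0.14 and 3.82 ± 0.07, and its difference of 0.15 ± 0.06 in shock-resistant rats against controls (adjusted p = 0.362) was the smallest p of any member there. Cox6a2 averaged 4.90 ± 0.15, 4.88 ± 0.07 and 4.99 ± 0.16, and Cox8b 3.96 ± 0.12, 4.01 ± 0.09 and 3.98 ± 0.08.

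Among the general isoforms of complex IV, Cox7a2 read 12.30 to 13.38 in controls (median 12.90), 12.79 to 13.37 in shock-resistant rats (median 13.08) and 11.97 to 13.08 in shock-sensitive rats (median 12.89). The control and shock-sensitive groups each held arrays below every shock-resistant array, and the groups overlapped. The difference was 0.37 ± 0.19 between the shock groups, 1.29-fold (adjusted p = 0.773), and 0.25 ± 0.19 against controls (adjusted p = 0.616). Without shock-sensitive replicate 3 the first of these was 0.22 (adjusted p = 0.776). Its copy Cox7a2l2 had the largest difference of any member between the shock groups, 0.37, with a 95% interval from −0.034 to 0.78 (adjusted p = 0.776). Cox5b, the zinc-binding subunit, averaged 7.87 ± 0.15, 7.76 ± 0.06 and 7.69 ± 0.28, and no array of either shock group lay above the control median. Its difference in shock-sensitive rats was −0.19 ± 0.10 (adjusted p = 0.833), or −0.088 without shock-sensitive replicate 3.

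The remaining general isoforms had group means closer together than the spread of at least 1 of the groups. Cox4i1, the isoform that Cox4i2 can replace, averaged 11.02 ± 0.22 in controls, 11.08 ± 0.08 in shock-resistant and 10.92 ± 0.29 in shock-sensitive rats. Cox6a1 averaged 14.63 ± 0.34, 14.70 ± 0.42 and 14.55 ± 0.25 in the same order. Cox7b averaged 11.78 ± 0.22, 11.89 ± 0.20 and 11.69 ± 0.47, and its lowest array was shock-sensitive replicate 3. Cox8a averaged 8.84 ± 0.08, 8.92 ± 0.15 and 8.83 ± 0.12. The supercomplex factor Cox7a2l averaged 10.79 ± 0.14, 10.72 ± 0.12 and 10.84 ± 0.21, and without shock-sensitive replicate 3 its difference between the shock groups was −0.20 (adjusted p = 0.704) in place of −0.12. Ndufa4 averaged 12.16 ± 0.14, 12.21 ± 0.13 and 12.09 ± 0.30. Its dim relative Ndufa4l2 averaged 6.03 ± 0.17, 6.02 ± 0.14 and 6.05 ± 0.09, so that neither of the pair separated the groups.

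In complex V 14 of 20 genes were above controls in shock-resistant rats (median 0.044) and 6 of 20 in shock-sensitive rats (median −0.039), which turned to 12 of 20 (median 0.046) without shock-sensitive replicate 3. Shock-resistant rats had 15 of 20 above shock-sensitive rats (median 0.057), or 13 of 20 (median 0.011) without shock-sensitive replicate 3. Atp5mk read 14.08 to 14.88 in controls (median 14.42), 14.59 to 14.88 in shock-resistant rats (median 14.80) and 13.27 to 14.86 in shock-sensitive rats (median 14.71). Shock-resistant arrays lay close together near the top of the range and 3 controls lay near the bottom of theirs, with overlap. The difference of 0.31 ± 0.23 against controls (adjusted p = 0.602) was the largest of any member in that comparison. Atp5f1e, the epsilon subunit of the central stalk, read 11.18 to 11.87 in controls (median 11.63), 11.66 to 11.95 in shock-resistant rats (median 11.84) and 10.54 to 11.85 in shock-sensitive rats (median 11.67). The control median was exceeded by all 6 shock-resistant arrays. Its difference was 0.37 ± 0.18 between the shock groups, 1.29-fold (adjusted p = 0.769), and 0.18 without shock-sensitive replicate 3.

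Atp5hl1, a dim copy of the peripheral stalk gene Atp5pd, had the smallest p of complex V. It read 5.08 to 5.56 in controls (median 5.33), 5.21 to 5.59 in shock-resistant rats (median 5.50) and 4.76 to 5.64 in shock-sensitive rats (median 5.16), so that the groups overlapped over most of their range. Its difference between the shock groups was 0.26 ± 0.12 (adjusted p = 0.769), or 0.18 without shock-sensitive replicate 3. Atp5pd itself averaged 13.47 ± 0.24 in controls, 13.52 ± 0.10 in shock-resistant and 13.32 ± 0.24 in shock-sensitive rats. The catalytic subunits differed little: Atp5f1a averaged 14.75 ± 0.17, 14.71 ± 0.15 and 14.79 ± 0.15, and Atp5f1b 15.42 ± 0.22, 15.46 ± 0.35 and 15.48 ± 0.16. Atp5if1, the inhibitor that stops the enzyme from running backwards, averaged 11.31 ± 0.21, 11.37 ± 0.08 and 11.36 ± 0.28. Atp5mc1l2, a copy of the c-ring gene Atp5mc1, averaged 7.15 ± 0.13, 7.07 ± 0.07 and 7.01 ± 0.20, a difference of −0.14 ± 0.08 in shock-sensitive rats (adjusted p = 0.843).

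**Figure D4:**
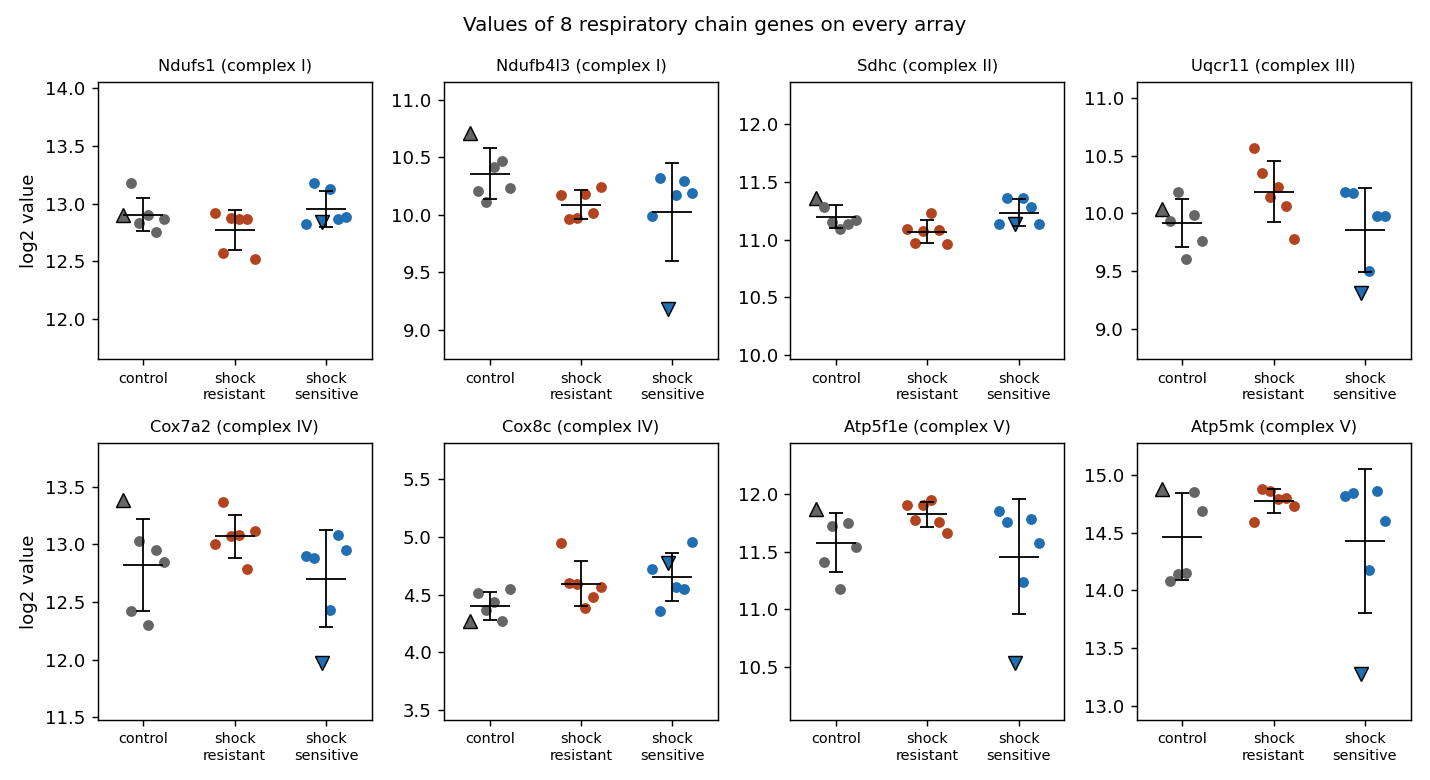
Log2 values (vertical axis, the same span in every panel) of 8 members on each array, by group (horizontal axis). Points are arrays, triangles mark shock-sensitive replicate 3 (down) and control replicate 1 (up), and bars give the mean ± SD of 6 arrays. Groups overlap in every panel, and shock-sensitive replicate 3 is the lowest array for Ndufb4l3, Uqcr11, Cox7a2, Atp5f1e and Atp5mk.

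Genes around the chain were read from lists, and none of their members passed the adjusted threshold in any comparison. Of 30 measured genes for cytochrome c, its partners and further assembly factors, shock-resistant rats had 13 above and 17 below controls, with Tmem126b, a complex I assembly factor, at −0.14 ± 0.07 (adjusted p = 0.448). Uqcc1, a complex III assembly factor, stood at −0.28 ± 0.11 between the shock groups (adjusted p = 0.753), and in shock-sensitive rats against controls Etfb, of the electron transfer flavoprotein, stood at 0.20 ± 0.11 (adjusted p = 0.830). Of 15 biogenesis regulators shock-resistant rats had 7 above and 8 below controls. Tfb1m, a mitochondrial ribosomal RNA methyltransferase, stood at −0.28 ± 0.11 (adjusted p = 0.362). Yy1 stood at −0.10 ± 0.05 in shock-sensitive rats against controls (adjusted p = 0.830), and Polg, the mitochondrial DNA polymerase, at 0.085 ± 0.041 between the shock groups (adjusted p = 0.769).

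Of 22 genes of the tricarboxylic acid cycle and pyruvate entry, shock-resistant rats had 3 above and 19 below controls (median −0.083), where 54.4% of all genes were above. Set against shock-sensitive rats they had 3 above and 19 below (median −0.074), and shock-sensitive rats had 11 above and 11 below controls. Without shock-resistant replicate 6, which had the lowest mean of these genes in its group (10.99), the first of these splits was 6 and 16 and the second 7 and 15. Pdk2, a kinase that restrains pyruvate dehydrogenase, stood at −0.22 ± 0.09 against controls in shock-resistant rats (adjusted p = 0.364). Suclg2, a subunit of succinate-CoA ligase, stood at −0.15 ± 0.07 between the shock groups (adjusted p = 0.769), and Mpc1, of the mitochondrial pyruvate carrier, at −0.19 ± 0.15 in shock-sensitive rats (adjusted p = 0.903). Of 17 glycolysis genes 1 was higher and 16 lower in shock-resistant than in shock-sensitive rats (median −0.055), or 9 and 8 without the same array, with Gpi, the glucose phosphate isomerase, at −0.17 ± 0.07 (adjusted p = 0.753). Aldoa, an aldolase, stood at 0.089 ± 0.058 in shock-sensitive rats against controls (adjusted p = 0.870). Of 14 carriers, porins and dynamics genes shock-resistant rats had 2 above and 12 below controls (median −0.082), or 4 and 10 without that array, with the fusion protein Mfn1 at −0.16 ± 0.06 (adjusted p = 0.362) and −0.19 ± 0.06 between the shock groups (adjusted p = 0.753). Tomm20, of the import machinery, stood at −0.18 ± 0.10 in shock-sensitive rats against controls (adjusted p = 0.841). Shock-resistant replicate 6 also had the lowest mean of its group for the glycolysis genes (13.24) and for the 102 respiratory chain genes (9.48).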

How the data were processed

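RNA from the nucleus accumbens of 18 rats was hybridised to Affymetrix whole-transcript arrays, 1 per rat, and per the submitters' processing notes the software was Affymetrix Expression Console. The values the authors deposited were taken as log2 from their range. How values were summarised, normalized or filtered is, in the sources used here, not stated. The table held 70580 features, of which 23446 carried 1 gene symbol in the platform annotation. The feature with the highest mean was kept per gene, which left 22093 genes, and no filter on low values was applied. Of 130 features that matched the symbol rule, 8 with several symbols and 14 pseudogenes were left out, and 5 members had more than 1 feature.

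The limma model (lmFit and default eBayes, limma 3.58.1 in R 4.3.3, group as the only term) took all 18 arrays, with Benjamini-Hochberg adjustment over all genes and a threshold of 0.05. The 6 arrays per group limit the precision. The fit was tested on simulated data with genes drawn independently, so shared variation of genes or a displaced array was not covered. Named members were, in each comparison, the 5 higher and 5 lower with the smallest limma p, the smallest F test p per complex, complex II, the isoforms of complex IV, Atp5if1, members below the negative control median and, in each other list, the smallest p per comparison. Other members named for their spread, their displacement on shock-sensitive replicate 3, their intervals, their copies or their promoters were chosen after their values were seen. The members and lists were chosen with earlier results of these data known. Promoters came from the RefSeq table of GRCr8. Python 3.11.15, numpy 2.4.6, pandas 2.3.3 and matplotlib 3.10.9 were used. The alternatives are given at the end.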

Additional observations from a re-analysis of the deposited data

Results flagged for a closer look

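Within groups of 6 arrays, 9 values, in 111 groups of arrays tested for the named genes, lay apart from the rest of their group by Dixon's criterion at the 95% level (the gap to the nearest array set against the group's range). Control replicate 1 was the high array for Atp5if1 (11.69), Cox7a2l (11.06), Ndufa12 (8.53) and Ndufa2 (7.81). Shock-sensitive replicate 3 was the low array for Ndufa4 (11.51) and Ndufb4l3 (9.18). Shock-resistant replicate 6 was low for Ndufa12 (7.93), control replicate 2 was high for Ndufs1 (13.18), and shock-sensitive replicate 4 was high for Sdha (12.66). Chance gives about 1 in 20 such groups. Over all members 32 of 306 groups met the criterion, 12 with shock-sensitive replicate 3 and 7 with control replicate 1. Members vary together, so these are not independent. No share over all genes is given for the criterion, so 32 of 306 cannot be read as an excess particular to the members.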

How the results depend on the processing

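Under 30 alternatives (18 arrays left out in turn, 12 others) 0 members passed the adjusted threshold in each comparison. Of 891 alternative values for 30 differences of named genes, 889 kept their direction and 2 turned, both in shock-sensitive rats against controls with control replicate 1 and shock-sensitive replicate 3 left out together, a choice made after seeing the data (Ndufa2 0.00068, Ndufs5 0.0035). Some alternatives leave a difference unchanged by construction, such as an array of the third group left out, 2 groups alone or the replicate block. Those values could not turn, and the genes were chosen for small p in the same data, so 889 is no measure of stability. Counts at an unadjusted p under 0.05 moved as follows, and the cause was not tested. For shock-resistant rats against controls, 2 as reported, it was 6 with 2 groups alone, 4 with array weights, 7 without those 2 arrays, and 1 with all features, the dim gene filter, the medium spiny neuron mean as covariate, quantile normalization, the replicate block, or trend and robust variance, and 0 to 4 with 1 array left out. For shock-sensitive rats against controls, 3 as reported, it was 9 without those 2 arrays, 1 with the dim gene filter or quantile normalization, and 2 to 4 with 1 array left out. Between the shock groups, 4 as reported, it was 8 with quantile normalization, 2 with 2 groups alone, centred medians, array weights or the dim gene filter, and 2 to 7 with 1 array left out. Splits moved most in shock-sensitive rats against controls: 36 of 102 higher as reported, 28 with medians centred, 64 with array weights, 83 without those 2 arrays, and 24 to 70 with 1 array left out. Between the shock groups it was 73 higher as reported, 60 with array weights and 42 to 79 with 1 array left out; for shock-resistant rats against controls 52, 73 with array weights and 44 to 69. Medians ranged over −0.072 to 0.036, −0.016 to 0.085 and −0.015 to 0.035 with 1 array left out, in that order. Same-numbered arrays of different groups correlated at −0.31 to 0.29, over 0.1 in 5 of 18 pairs, and 5 of 18 arrays correlated best with their own number, so the numbers were not taken to pair the rats, and the replicate block changed no adjusted call. Below the negative control median, where 10 members lie, signal limits what a difference can show.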
